A study of Mus musculus with 9 samples.

Results

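*Slpi* and *Lcn2* encode small secreted proteins of innate defense, and both were read in RNA from the mouse myeloma line 5TGM1. They are 2 of the 53077 genes listed in the deposited tables, and both passed the filter on low counts that 13834 genes passed. They were picked from earlier results of these same libraries because, with a gRNA against the glucose transporter gene *Slc2a1*, *Slpi* was lower and *Lcn2* higher than with a control gRNA. The levels in that pair of groups are therefore given as a description with no test. The *Slc2a1/3/5/6/8* gRNA libraries did not enter the choice, so comparisons that use them are tested.

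SLPI, the secretory leukocyte protease inhibitor, is a short protein built of whey acidic protein (WAP) domains that blocks neutrophil serine proteases such as elastase and cathepsin G, and that shields progranulin from being cut. LCN2, also called lipocalin 2 or NGAL, binds bacterial siderophores and so keeps iron from microbes, is taken up through receptors such as the SLC22A17 and LRP2 proteins, and forms a complex with the protease MMP9. Both are best known from neutrophils and mucosal epithelium, and *Lcn2* is a textbook target of NF-kB acting together with IkBz, the product of *Nfkbiz*, and with C/EBP factors.

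The study asked whether losing glucose transporters alters uptake of a fluorescent glucose analog by these cells. All 9 samples were 5TGM1 cells, a plasma cell tumor line of mouse, that carried Cas9 constitutively. They formed 3 populations of 3 biological replicates each. Control cells received a gRNA against *Rosa26*, a locus used as a neutral target. A further population received an *Slc2a1* gRNA. The last carried the *Slc2a1/3/5/6/8* gRNAs, and it was made in 2 steps. A line edited at *Slc2a3*, *Slc2a5*, *Slc2a6* and *Slc2a8* was sorted for its reporter and expanded, and the *Slc2a1* gRNA was then added. All gRNAs came by lentivirus, and the cultures were pools in which a part of the alleles stayed unedited. The gRNAs against *Slc2a3*, *Slc2a5*, *Slc2a6* and *Slc2a8* came on vectors that each carried a fluorescent protein. The paper made matching vectors without a gRNA but does not say whether the control cells sequenced here carried them. These vectors, and the sorting and expansion of that line, cannot be told apart from the extra deletions. Each sample held 21838805 to 30537105 estimated counts. *Slc2a1* RNA lay between 26.9 and 59.5 TPM (transcript abundance corrected for length and depth) with control gRNA, between 28.3 and 37.1 TPM with *Slc2a1* gRNA and between 19.1 and 31.5 TPM with the 5 gRNAs, so the ranges overlapped. It was not called with the *Slc2a1* gRNA (log2 fold change -0.21, adjusted p 0.544 by edgeR's quasi-likelihood test) and fell by 0.66 with the 5 gRNAs against control cells (adjusted p 0.0290). That call was lost without the replicate block (adjusted p 0.101) and without control replicate 1 or 3 or replicate 1 or 3 of the 5 gRNAs (0.0767 to 0.222). Of the other targets, *Slc2a8* was between 3.05 and 4.13 TPM with the 5 gRNAs and between 7.44 and 9.77 TPM in control cells (-1.22, adjusted p 0.000309), *Slc2a6* was between 1.67 and 1.87 against 2.92 to 3.78 TPM (-0.67, adjusted p 0.0366), and *Slc2a5* was higher, between 0.508 and 1.42 against 0.104 to 0.396 TPM (2.65, adjusted p 0.00478). *Slc2a8* was also lower than with the *Slc2a1* gRNA (-1.04, adjusted p 0.00301). *Slc2a3* was not called and its ranges overlapped. The call for *Slc2a6* was lost without the replicate block (adjusted p 0.0712) and without any control replicate or any replicate of the 5 gRNAs (0.0635 to 0.156). A frameshift need not lower the RNA, and the RNA level is no measure of the editing.

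Markers of other cells were checked because both proteins are best known outside plasma cells. The 10 plasma cell markers, *Sdc1* and *Xbp1* among them, summed to between 902 and 1351 TPM in the 9 libraries. The 15 neutrophil markers summed to between 0.914 and 3.25 TPM, and *S100a8*, *S100a9* and *Mmp8* were at 0 in all 9 libraries. The 6 T cell markers reached at most 1.76 TPM and the 6 fibroblast markers at most 1.47 TPM. Of the 9 plasma cell markers tested, *Jchain*, which encodes the joining chain of polymeric antibodies, and *Pou2af1*, a B cell transcriptional coactivator, were called, both of them in each comparison against control cells and *Jchain* between the edited populations, where 4.64%, 15.9% and 2.31% of all genes were called. *Jchain* fell by 1.33 on the log2 scale with the *Slc2a1* gRNA (adjusted p 0.00529 by edgeR's quasi-likelihood test), rose with the 5 gRNAs (0.59, adjusted p 0.0348), and was higher with the 5 gRNAs than with the *Slc2a1* gRNA (1.92, adjusted p 0.000221). *Pou2af1* rose in both comparisons against control cells (0.61, adjusted p 0.0207, and 0.55, adjusted p 0.0121). *Jchain* with the *Slc2a1* gRNA was lost without control replicate 2 (adjusted p 0.0532), and with the 5 gRNAs without any control replicate or replicate 1 or 2 of the 5 gRNAs (0.0743 to 0.147). *Pou2af1* was lost with the *Slc2a1* gRNA without any control replicate or *Slc2a1* gRNA replicate 1 or 2 (0.0872 to 0.153), and with the 5 gRNAs without control replicate 1 or 3 or replicate 3 of the 5 gRNAs (0.0698 to 0.0964). The mean of *Cd38*, the marker not tested, was at most 0.00737 TPM in any population. Of the 2 fibroblast markers tested, *Pdgfra*, a growth factor receptor gene, was called although its counts were low. It had 40, 1 and 5 estimated counts in control cells, 30, 11 and 7 with the *Slc2a1* gRNA, and 0 in each library with the 5 gRNAs, where a count of 0 allows up to 3 counts. Those libraries were lower than control cells (adjusted p 0.0189 by edgeR's quasi-likelihood test) and than the *Slc2a1* gRNA (adjusted p 0.0304). The former call was lost without control replicate 1 or 3 or replicate 1 or 3 with the 5 gRNAs (adjusted p 0.0512 to 0.160). The latter was lost without the replicate block (0.118), and without control replicate 3, *Slc2a1* gRNA replicate 2 or 3, or replicate 1 or 2 with the 5 gRNAs (0.0576 to 0.103). The part of *Pdgfra* in the level of *Slpi* was not tested.

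Both genes lie on the minus strand of mouse chromosome 2 in GRCm38, in the GENCODE M21 annotation. *Slpi* spans chr2:164354070-164389095, and its 876-base transcript Slpi-201 has 4 exons and starts at 164356507. *Lcn2* spans chr2:32384633-32388252, and its 915-base transcript Lcn2-201 has 6 exons and starts at 32387797. No exonic base of *Lcn2* and 1 exonic base of *Slpi* is shared with another annotated gene. The sequences just upstream of these 2 starts are printed below because a pair of genes that differed in opposite directions invites a look at what their promoters share. They are RefSeq promoter sequences on GRCm38.p6, cut back so that no transcribed base of these 2 transcripts is shown, and both read 5′ to 3′ on the minus strand. The first is chr2:164356508-164356757, which is 250 bases, and the next is chr2:32387798-32387989, which is 192 bases. The *Lcn2* window holds 139 bases of a coding exon of another *Lcn2* transcript that starts farther upstream. Capitals mark matches to the core of a C/EBP site (TTGCNNAA) and, for *Slpi*, an E-box (CACGTG), searched on both strands.

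Slpi: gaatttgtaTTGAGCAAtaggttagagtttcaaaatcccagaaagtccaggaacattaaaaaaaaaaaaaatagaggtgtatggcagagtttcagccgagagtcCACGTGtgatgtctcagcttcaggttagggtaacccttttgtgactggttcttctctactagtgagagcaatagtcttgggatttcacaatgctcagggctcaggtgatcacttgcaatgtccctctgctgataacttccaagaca

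Lcn2: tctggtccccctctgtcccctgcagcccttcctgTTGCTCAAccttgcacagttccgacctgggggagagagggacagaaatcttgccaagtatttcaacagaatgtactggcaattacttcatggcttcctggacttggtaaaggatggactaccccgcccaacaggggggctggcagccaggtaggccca

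Both windows held 1 match to the C/EBP core, and the 8 bases were the same word read from opposite strands. In *Slpi* it ran as TTGAGCAA at bases 10 to 17 of the window, and in *Lcn2* as TTGCTCAA at bases 35 to 42. The *Lcn2* match lies within the 139 bases that are coding sequence of another *Lcn2* transcript. Such a match is common, since 9.56% of 32851 RefSeq promoter windows held the core in the same 250 bases and 7.84% in the same 192 bases. The E-box of *Slpi*, at bases 105 to 110, was found in 6.02% of windows of that length and had no counterpart in the window of *Lcn2*. The NF-kB consensus, a STAT core (TTCNNNGAA), a TATA box (TATAAA) and an AP-1 core (TGANTCA) had no match in either window, which says only that these letters are not there. They occurred in 7.25%, 7.02%, 12.4% and 6.75% of all 250-base windows. In the 192-base windows they occurred in 5.50%, 5.56%, 8.82% and 5.28%. A match is a description and was not read as a binding site.

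*Slpi* was among the more abundant RNAs of control cells and was less abundant in both edited populations. Its level in control replicates 1, 2 and 3 was 180, 84.1 and 59.7 TPM. The *Slc2a1* gRNA libraries held 46.8, 25.6 and 22.1 TPM. Those with the 5 gRNAs held 5.63, 8.05 and 4.71 TPM. Every library of one population lay apart from every library of the next on this scale. In terms of the 13834 genes tested, the mean level of *Slpi* was at percentile 94.6 in control cells, at percentile 82.4 with the *Slc2a1* gRNA and at percentile 43.3 with the 5 gRNAs. From bulk RNA, fewer cells that express a gene and less RNA per cell cannot be told apart.

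*Slpi* had 3366, 1679 and 1153 estimated counts in the control replicates, 722, 328 and 368 with the *Slc2a1* gRNA, and 111, 115 and 84 with the 5 gRNAs. After scaling for library size and composition these gave means of 1812 ± 1069, 549 ± 289 and 109 ± 29.4 scaled counts (SD, n = 3). On that scale the lowest control library, at 896, was close to the highest *Slc2a1* gRNA library, at 882. The control libraries differed by 3.33-fold between the highest and the lowest. Of 3966 genes within 2-fold of the same mean scaled count in control cells, 99.8% differed by less, and their median was 1.18-fold. The span was 2.32-fold with the *Slc2a1* gRNA, more than in 99.4% of 3984 such genes, and 1.71-fold with the 5 gRNAs, more than in 77.1% of 1650 genes. *Slpi* thus varied between replicate cultures more than nearly all genes of its level in control cells and with the *Slc2a1* gRNA.

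The TPM of *Slpi* also depends on which of its transcripts the reads were assigned to, because TPM is set by length. In 7 of 9 libraries the deposited length was 876 bases, that of Slpi-201. It was 844 bases in control replicate 1 and 716 bases in *Slc2a1* gRNA replicate 2, and the shorter annotated transcripts Slpi-202 and Slpi-203 have 488 and 601 bases. In the latter library the TPM, 25.6, was above that of replicate 3, 22.1, although its scaled count was not (380 against 383). The edgeR fold changes that follow rest on counts and do not use the length.

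*Lcn2* was scarce in control cells, and its mean level was higher in both edited populations. Its level in control replicates 1, 2 and 3 was 0.616, 1.74 and 4.59 TPM. It was 15.7, 8.36 and 6.79 TPM with the *Slc2a1* gRNA. It was 3.21, 4.99 and 9.77 TPM with the 5 gRNAs. The *Slc2a1* gRNA libraries all lay above the control libraries. The libraries with the 5 gRNAs overlapped both other populations. The mean level was at percentile 29.5 of the tested genes in control cells, at percentile 56.9 with the *Slc2a1* gRNA and at percentile 42.8 with the 5 gRNAs.

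The estimated counts of *Lcn2* were 13, 37 and 95 in control cells, 259, 157 and 121 with the *Slc2a1* gRNA, and 67, 76 and 185 with the 5 gRNAs. The 13 counts of control replicate 1 carry an exact 95% Poisson interval of 6.92 to 22.2, which covers counting error only and stays under the 37 counts of replicate 2. Scaled counts averaged 39.9 ± 31.5 in control cells, 208 ± 97.9 with the *Slc2a1* gRNA and 109 ± 50.3 with the 5 gRNAs (SD, n = 3). On scaled counts the highest control library, at 73.9, lay just under the lowest library with the 5 gRNAs, at 74.3, so that these groups were apart there by less than 1 scaled count and overlapped on TPM. The control libraries spanned 6.40-fold, more than in 98.6% of 1943 genes within 2-fold of the same mean, whose median was 1.74-fold. The spans with the *Slc2a1* gRNA and with the 5 gRNAs, 2.51-fold and 2.24-fold, were larger than in 97.6% of 2264 and 94.0% of 1643 such genes.

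**Figure D1:**
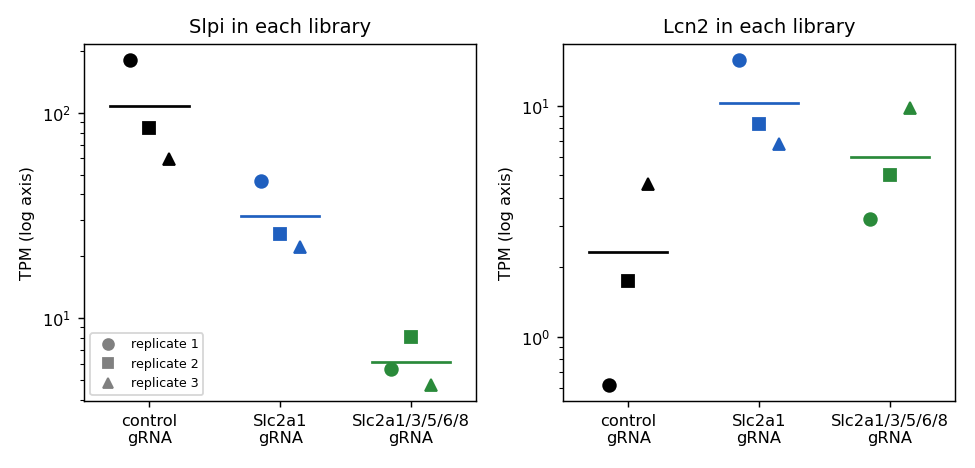
Level of *Slpi* (left) and *Lcn2* (right) in each of the 9 libraries, in TPM on a log axis; symbols give the replicate number and horizontal lines the mean of 3. *Slpi* falls into separate bands from 59.7 to 180, 22.1 to 46.8 and 4.71 to 8.05 TPM, while *Lcn2* with the 5 gRNAs (3.21 to 9.77 TPM) overlaps both other populations.

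The replicates did not order the genes alike. In control cells the library with the most *Slpi*, replicate 1, had the least *Lcn2*, and the library with the least *Slpi*, replicate 3, had the most *Lcn2*. With the *Slc2a1* gRNA, replicate 1 held the most of both, and the ratio of *Slpi* to *Lcn2* TPM was 2.98, 3.06 and 3.26, while that of their estimated counts, which the length of *Slpi* does not enter, was 2.79, 2.09 and 3.04. In control cells the ratio of TPM was 293, 48.4 and 13.0, and with the 5 gRNAs it was 1.75, 1.61 and 0.482. In replicate 3 with the 5 gRNAs *Lcn2* RNA thus exceeded *Slpi* RNA, the only library of the 9 where it did. Over the 9 libraries log2 CPM (counts scaled to library size) of the pair had a Pearson r of -0.54 and a Spearman rho of -0.55. These are descriptions over libraries that share 3 groups, and the group differences that chose the genes are part of them.

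**Figure D2:**
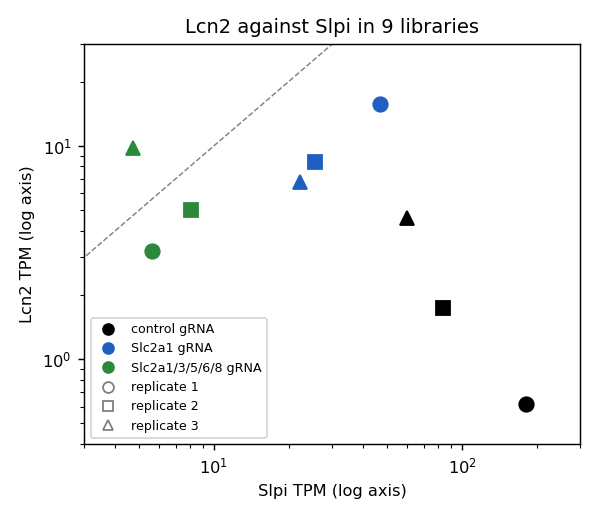
*Lcn2* against *Slpi* in TPM, both on log axes, with 1 point per library, colored by population and shaped by replicate; the dashed line marks equal levels. Control libraries run from high *Slpi* with low *Lcn2* (ratio 293) to a ratio of 13.0, the *Slc2a1* gRNA libraries lie at ratios of 2.98 to 3.26, and 1 library with the 5 gRNAs (ratio 0.482) lies above the line.

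In cells with the *Slc2a1* gRNA, *Slpi* was 3.18-fold lower than in control cells, a log2 fold change of -1.67 with a standard error of 0.20, and the same-numbered pairs gave -1.76, -2.03 and -1.23. *Lcn2* was 5.91-fold higher, a log2 fold change of 2.56 with a standard error of 0.53. On the log2 scale *Lcn2* was higher by 1.80 without *Slc2a1* gRNA replicate 1 and by 3.32 without *Slc2a1* gRNA replicate 3. Its pairs were far apart, at 4.78, 2.41 and 0.77, and the control libraries behind them had 13 to 95 counts. The groups did not overlap for either gene, as for 26.2% of all genes tested. Of all genes, 4.64% were called at an adjusted p under 0.05 by edgeR's quasi-likelihood test, 2.25% higher and 2.39% lower. These 2 members were chosen on this contrast, and nothing is read from those shares.

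With the 5 gRNAs, *Slpi* fell 15.2-fold against control cells. The log2 fold change was -3.92 with a standard error of 0.22 and a 95% interval of -4.41 to -3.44, and edgeR's quasi-likelihood test gave an adjusted p of 2.65e-06. The same-numbered pairs gave -4.60, -3.59 and -3.57, and by size it was number 18 of all tested genes that were lower. Of all genes, 15.9% were called in this comparison, 8.49% higher and 7.44% lower, and 34.2% had groups without overlap. The control libraries here are those that also helped choose *Slpi*, so this is not independent of the value with the *Slc2a1* gRNA.

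*Lcn2* did not pass the test in that comparison. It was 2.79-fold higher with the 5 gRNAs than in control cells, a log2 fold change of 1.48 with a standard error of 0.51 and a 95% interval of 0.38 to 2.58. All 3 pairs were positive, at 2.69, 1.32 and 1.17. The control libraries also helped choose *Lcn2*, so this is not independent of the value with the *Slc2a1* gRNA. The unadjusted p of edgeR's quasi-likelihood test was 0.0125 and the adjusted p was 0.0654. The call turned on the fit. It was passed when only these 2 groups were fitted (log2 fold change 1.62, adjusted p 0.0105) and without *Slc2a1* gRNA replicate 1 (adjusted p 0.0153), *Slc2a1* gRNA replicate 3 (adjusted p 0.0158) or replicate 1 with the 5 gRNAs (adjusted p 0.0472). Leaving out a library gave log2 fold changes from 0.97 without control replicate 1 to 2.21 without control replicate 3 (adjusted p 0.234 and 0.0546). Without replicate 3 with the 5 gRNAs the log2 fold change was 1.18 (adjusted p 0.304).

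Between the edited populations, *Slpi* fell again. It was 4.77-fold lower with the 5 gRNAs than with the *Slc2a1* gRNA alone, a log2 fold change of -2.25 with a standard error of 0.22 and a 95% interval of -2.74 to -1.77. The adjusted p was 0.000302 in edgeR's quasi-likelihood test, and the pairs gave -2.84, -1.55 and -2.34. Only 2.31% of all genes were called in this comparison, 1.36% higher and 0.947% lower, and 20.9% had groups without overlap. *Lcn2* was lower with the 5 gRNAs than with the *Slc2a1* gRNA by a log2 fold change of -1.09 with a standard error of 0.49 and a 95% interval of -2.15 to -0.02. It did not pass the test (adjusted p = 0.251 by edgeR's quasi-likelihood test), the groups overlapped, and the third pair went the other way at 0.40. The order of *Slpi* was thus control, *Slc2a1* gRNA and 5 gRNAs from high to low, and its groups did not overlap. The mean of *Lcn2* was highest with the *Slc2a1* gRNA and lowest in control cells, and the 5 gRNAs in between overlapped both on TPM. The *Slc2a1* gRNA libraries are shared with the contrast that chose the pair.

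**Figure D3:**
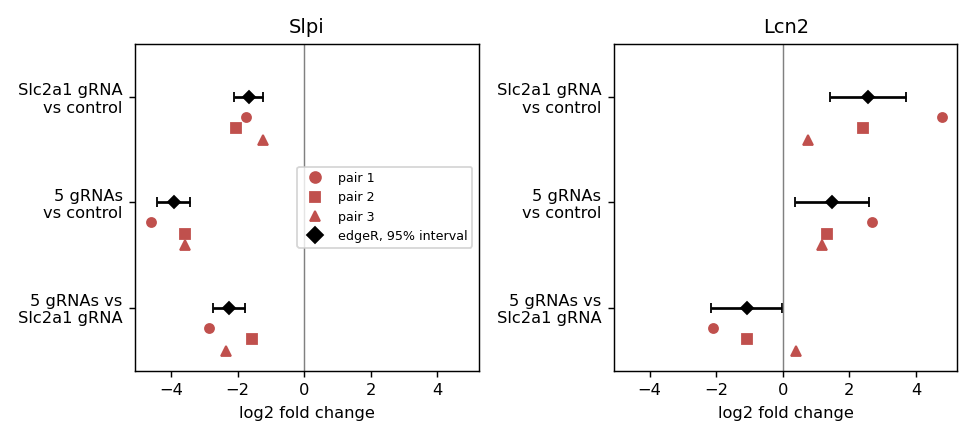
Log2 fold changes of *Slpi* (left) and *Lcn2* (right) in the 3 comparisons; black diamonds are edgeR estimates with 95% intervals and red symbols the same-numbered pairs of libraries. The genes were chosen on the *Slc2a1* gRNA against control cells, so their direction there is a description. In the comparisons with the 5 gRNAs, *Slpi* lies below 0 in all 6 pairs, and *Lcn2* lies above 0 in the 3 pairs against control cells and on both sides of 0 against the *Slc2a1* gRNA (-2.09, -1.09 and 0.40).

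*Epcam*, which encodes an epithelial adhesion protein, and *Cd68*, a lysosomal membrane protein used as a macrophage marker, were lower in both edited populations than in control cells. The 7 epithelial markers summed to between 266 and 324 TPM in control cells, between 125 and 163 TPM with the *Slc2a1* gRNA and between 89.4 and 123 TPM with the 5 gRNAs. Nearly all of this was *Epcam*, with means of 287, 146 and 106 TPM, while *Krt8*, *Krt19* and *Cdh1* were at 0 in all 9 libraries. *Epcam* fell by 0.82 on the log2 scale with the *Slc2a1* gRNA (adjusted p 0.00620 by edgeR's quasi-likelihood test) and fell by 1.39 with the 5 gRNAs (adjusted p 3.85e-05). The former was lost without control replicate 2 or *Slc2a1* gRNA replicate 2 (adjusted p 0.0532 and 0.0633). Between the edited populations *Epcam* fell by 0.57 (adjusted p 0.0246), a call that was lost without the replicate block (0.0759) and without control replicate 2 or 3, any *Slc2a1* gRNA replicate or replicate 3 with the 5 gRNAs (0.0570 to 0.107). The 8 macrophage markers summed to between 60.6 and 100 TPM in control cells, between 36.6 and 52.2 TPM with the *Slc2a1* gRNA and between 39.2 and 48.9 TPM with the 5 gRNAs. Of 3 macrophage markers tested, *Cd68* made up most of these sums and fell by 0.80 with the *Slc2a1* gRNA (adjusted p 0.0145 by edgeR's quasi-likelihood test) and fell by 0.92 with the 5 gRNAs (adjusted p 0.00177), with means of 40.9 and 38.4 TPM in these populations that were not called different (log2 fold change -0.13, adjusted p 0.674), while *Mrc1* rose with the *Slc2a1* gRNA (log2 fold change 0.73, adjusted p 0.0125). The calls for *Cd68* and *Mrc1* with the *Slc2a1* gRNA were lost without any control replicate or *Slc2a1* gRNA replicate 1 or 2 (adjusted p 0.0532 to 0.101). *Marco* was at 0 in all 9 libraries, and the mean of *Csf1r* was at most 0.0152 TPM in any population. The part of these genes in the level of *Slpi* was not tested.

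Genes for known partners of SLPI were mostly below the filter on low counts. *Elane*, which encodes neutrophil elastase, had at most 7 estimated counts in any library and was at 0 in all libraries with the *Slc2a1* gRNA. Of 13 targets and partners listed, only *Grn*, the progranulin gene, passed the filter on low counts. *Grn* was abundant, at 194 to 267 TPM in control cells, 218 to 252 TPM with the *Slc2a1* gRNA and 219 to 309 TPM with the 5 gRNAs. It rose with the 5 gRNAs against control cells (log2 fold change 0.38 ± 0.11 SE, adjusted p 0.0358 by edgeR's quasi-likelihood test), and its value with the *Slc2a1* gRNA was 0.26 ± 0.11 (adjusted p 0.189). The call with the 5 gRNAs was lost when any control replicate, *Slc2a1* gRNA replicate 2, or replicate 2 or 3 with the 5 gRNAs was left out (adjusted p 0.0563 to 0.224).

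Relatives of SLPI were nearly all below that filter as well. Of the 22 other genes of the WAP-domain family listed, only *Wfikkn1* and *Wfikkn2* passed the filter, with mean levels of at most 0.944 TPM, and neither was called in any comparison or had an unadjusted p under 0.05, which 22.0% of all genes had with the *Slc2a1* gRNA, 31.4% with the 5 gRNAs and 19.1% between the edited populations. Among 27 other protease inhibitors, 9 were tested. *Cst3*, which encodes the secreted cysteine protease inhibitor cystatin C, fell by 0.48 on the log2 scale with the *Slc2a1* gRNA (adjusted p 0.0428) and fell by 0.48 with the 5 gRNAs (adjusted p 0.0192), in edgeR's quasi-likelihood test. *Serpinb8*, a serine protease inhibitor of the cell interior, rose with the 5 gRNAs against control cells (log2 fold change 0.42, adjusted p 0.0352) and against the *Slc2a1* gRNA (0.63, adjusted p 0.0222). Without the replicate block the calls for *Cst3* with the *Slc2a1* gRNA (adjusted p 0.0502) and for *Serpinb8* in both comparisons (0.0687 and 0.0587) were lost. Leaving out any control replicate also ended the calls for *Cst3* in both comparisons and for *Serpinb8* against control cells (adjusted p 0.0553 to 0.233), and leaving out any *Slc2a1* gRNA replicate ended that for *Serpinb8* against the *Slc2a1* gRNA (0.0662 to 0.113). Besides these, *Slc2a1* gRNA replicates 1 and 2 for *Cst3* with the *Slc2a1* gRNA, replicates 2 and 3 with the 5 gRNAs for *Cst3*, *Slc2a1* gRNA replicate 2 and replicates 1 and 2 with the 5 gRNAs for *Serpinb8* against control cells, and replicate 2 with the 5 gRNAs for *Serpinb8* against the *Slc2a1* gRNA ended the call when left out (adjusted p 0.0528 to 0.197).

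On the side of LCN2, its receptors were near the limit of detection. *Slc22a17* had at most 4 and *Lrp2* at most 10 estimated counts in any library. *Mmp9* RNA was between 0.142 and 1.02 TPM in the 9 libraries and was not called in any comparison. Of the lipocalin family, 20 genes were listed and 19 of them occur in the tables. Only *C8g*, the complement component 8 gamma chain, passed the filter, and it was not called. Among 26 genes for LCN2 receptors and iron handling, 18 were tested. *Tfrc*, the transferrin receptor gene, rose with the *Slc2a1* gRNA (log2 fold change 1.33 ± 0.28 SE, adjusted p 0.0248 by edgeR's quasi-likelihood test). Its level was 33.1 to 85.7 TPM there and 22.7 to 27.1 TPM in control cells. That call was lost without any control replicate or *Slc2a1* gRNA replicate 2 (adjusted p 0.0796 to 0.159). Without *Slc2a1* gRNA replicate 1 the log2 fold change of *Tfrc* was 0.73 (adjusted p 0.0416). *Slc25a28*, the mitochondrial iron importer mitoferrin 2, fell by 0.67 with the 5 gRNAs (adjusted p 0.0168), and the other 17 genes of the list were not called in that comparison, where 15.9% of all genes were called. The call for *Slc25a28* was lost without control replicate 1 or 3, or replicate 2 or 3 with the 5 gRNAs (adjusted p 0.0543 to 0.121).

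Of the 34 NF-kB, C/EBP and STAT3 regulators listed, 27 were tested. For the *Slc2a1* gRNA 0 were called by edgeR's quasi-likelihood test, 6 had an unadjusted p under 0.05, and DESeq2 called 1, where 4.64%, 22.0% and 9.07% of all genes passed the same thresholds. The 5 gRNAs gave 6 that rose and 0 that fell, beside 8.49% of all genes called higher and 7.44% called lower there. The median log2 fold change of the 27 with the 5 gRNAs was 0.23, against 0.01 over all genes tested. The list was chosen with earlier results of these data known, so these values are a description and the list was not tested. *Nfkbiz*, which encodes the cofactor that *Lcn2* needs in other cells, rose with the 5 gRNAs (log2 fold change 0.57 ± 0.17 SE, adjusted p 0.0447 by edgeR's quasi-likelihood test) and had almost the same estimate with the *Slc2a1* gRNA (0.55 ± 0.17, adjusted p 0.0900), where it was not called. The former call was lost without the replicate block (adjusted p 0.0620) and without any control replicate, *Slc2a1* gRNA replicate 2, or replicate 2 or 3 with the 5 gRNAs (adjusted p 0.0603 to 0.204). In the comparison with the *Slc2a1* gRNA, DESeq2 called it (adjusted p 0.0205), as did edgeR fitted to these 2 groups alone (0.00172), with no low-count filter (0.000963), and without replicate 1 (0.0104) or replicate 2 (0.0496) with the 5 gRNAs. *Cebpb*, a C/EBP factor of acute-phase responses, rose with the 5 gRNAs (0.75, adjusted p 0.0160), from 67.1 to 122 TPM in control cells to 135 to 149 TPM. *Cebpg*, a C/EBP protein that works as a dimer partner, rose in that comparison (0.86, adjusted p 0.000662) and against the *Slc2a1* gRNA (0.66, adjusted p 0.0118). *Tlr4*, the receptor for bacterial lipopolysaccharide, rose against control cells (0.71, adjusted p 0.00202) and against the *Slc2a1* gRNA (0.80, adjusted p 0.00406). *Rel*, an NF-kB subunit, and *Nfkbia*, the inhibitor that holds NF-kB in the cytoplasm, also rose against control cells (0.79, adjusted p 0.00729, and 0.44, adjusted p 0.0167). The rises of *Cebpg* and *Tlr4* against control cells were called whichever library was left out. That of *Rel* was lost without control replicate 3 (adjusted p 0.0531), that of *Cebpb* without control replicate 1 or 2 (0.130 and 0.0548) and that of *Nfkbia* without any control replicate (0.0755 to 0.113). With limma on log2(TPM + 1) or log2(TPM + 0.1), *Tlr4* (adjusted p 0.0641 and 0.0609) and *Rel* (0.187 and 0.183) were not called against control cells. *Cebpg* was not called with the former (0.0517). The call of *Nfkbia* was lost in 2 of 8 alternatives that kept all samples, and that of *Cebpb* in 0. Against the *Slc2a1* gRNA, *Tlr4* was lost without *Slc2a1* gRNA replicate 2 (0.0545), and *Cebpg* without *Slc2a1* gRNA replicate 2 or 3 (0.0884 and 0.0624).

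Other secreted innate and acute-phase proteins gave 6 tested genes out of 32. *Lgals3bp*, a secreted galectin-binding glycoprotein, rose with both the *Slc2a1* gRNA (log2 fold change 1.02 ± 0.15 SE, adjusted p 0.00667 by edgeR's quasi-likelihood test) and the 5 gRNAs (1.38 ± 0.15, adjusted p 0.000194). Its levels were 4.42 to 8.13 TPM in control cells, 10.1 to 16.8 TPM with the *Slc2a1* gRNA and 13.6 to 18.6 TPM with the 5 gRNAs. *B2m*, the light chain of MHC class I, fell by 0.74 with the 5 gRNAs against control cells (adjusted p 0.00191) and fell by 0.65 against the *Slc2a1* gRNA (adjusted p 0.0147). Both genes were called against control cells with the 5 gRNAs whichever library was left out. *Lgals3bp* with the *Slc2a1* gRNA was lost without control replicate 2 or 3 (adjusted p 0.0532 and 0.0532), and *B2m* against the *Slc2a1* gRNA without *Slc2a1* gRNA replicate 2 or 3 (0.0630 and 0.0747). Over all 7 lists, 64 of 174 genes were tested. Called were 4.69% of them with the *Slc2a1* gRNA, 18.8% with the 5 gRNAs and 6.25% between the edited populations, beside 4.64%, 15.9% and 2.31% of all genes. The first count, 3 genes, was 0 without control replicate 2 or 3, 1 without control replicate 1 or *Slc2a1* gRNA replicate 2, and 8 without replicate 1 of the 5 gRNAs. The second, 12 genes, was 5 to 7 without a control replicate or without replicate 2 of the 5 gRNAs. The last, 4 genes, was 0 or 1 without *Slc2a1* gRNA replicate 2 or 3.

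**Figure D4:**
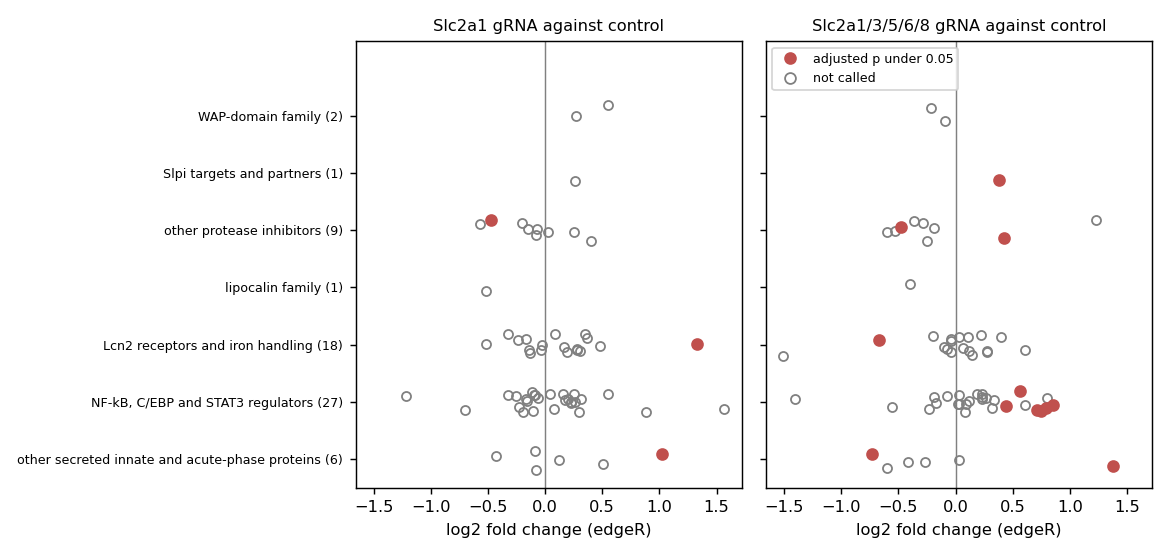
Log2 fold changes of the tested genes of 7 lists around SLPI and LCN2 with the *Slc2a1* gRNA (left) and the 5 gRNAs (right) against control cells; each point is 1 gene, the number after each list name is its genes tested, and filled red points have an adjusted p under 0.05. On the left 3 of 64 genes are filled, and on the right 12 of 64, of which 6 are regulators on the positive side. The lists were chosen with earlier results of these data known.

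Of the genes on either side of *Slpi* and *Lcn2*, those called changed by less than 0.6 on the log2 scale. Of the 10 tested neighbors of *Slpi*, 5 on each side, 0 were called with the *Slc2a1* gRNA by edgeR's quasi-likelihood test, 4 had an unadjusted p under 0.05, and DESeq2 called 2. Of all genes, 4.64% were called in that comparison, 22.0% had such a p and 9.07% were called by DESeq2, and 15.9% were called with the 5 gRNAs against control cells. With the 5 gRNAs, *Ywhab*, a 14-3-3 protein gene 335 kb away, rose (log2 fold change 0.43, adjusted p 0.0398 by edgeR's quasi-likelihood test) and *Pigt*, a GPI-anchor transamidase subunit gene 108 kb away, fell by 0.46 (adjusted p 0.0106). The median of these neighbors was -0.40 with the 5 gRNAs, against 0.01 over all genes, and the lowest value was -1.40. The widest values against control cells were those of *Gm20458* and *Dbndd2* with the *Slc2a1* gRNA, 3.43 ± 1.42 SE and -2.04 ± 0.74 SE, which were not called (adjusted p 0.179 and 0.131 by edgeR's quasi-likelihood test). The nearest tested gene, *Sys1*, lies 67.9 kb away, and its log2 values were 0.07 for the *Slc2a1* gRNA and -0.12 for the 5 gRNAs. Around *Lcn2* the nearest tested genes, *1110008P14Rik*, *Ciz1* and *Ptges2*, lie 2.70, 3.66 and 7.64 kb away. Their log2 fold changes with the *Slc2a1* gRNA were 0.09, -0.05 and 0.33, and none was called in any comparison. *Golga2*, a Golgi matrix protein gene 76.7 kb away, was the one neighbor of *Lcn2* called, and it fell by 0.55 with the *Slc2a1* gRNA (adjusted p 0.0248) and fell by 0.57 with the 5 gRNAs (adjusted p 0.00821). The calls of *Ywhab* and *Pigt* were lost without any control replicate or replicate 3 with the 5 gRNAs, and that of *Ywhab* also without *Slc2a1* gRNA replicate 2 or replicate 2 with the 5 gRNAs (adjusted p 0.0571 to 0.210 for *Ywhab* and 0.0550 to 0.0902 for *Pigt*). That of *Golga2* was lost without any control replicate or *Slc2a1* gRNA replicate 1 or 2 in the former comparison (adjusted p up to 0.171), and without control replicate 1 or replicate 3 with the 5 gRNAs in the latter (0.0742 and 0.0531).

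**Figure D5:**
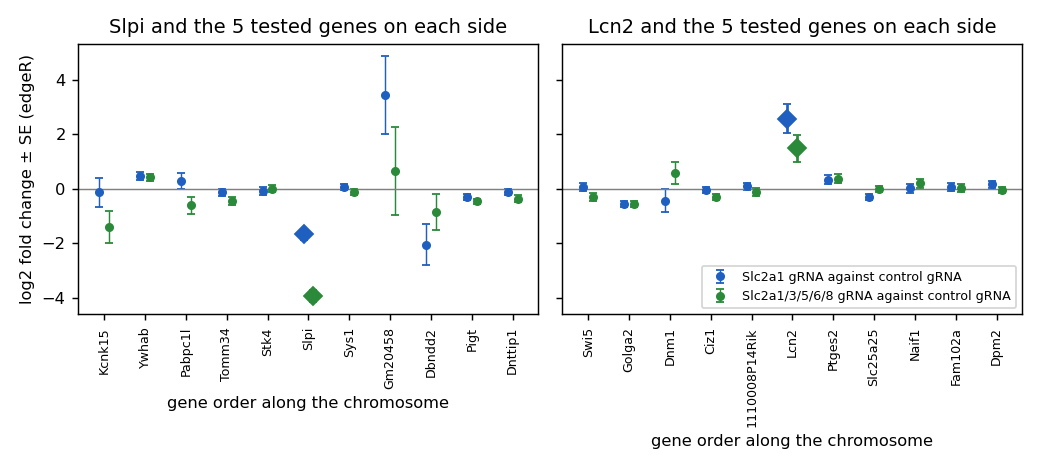
Log2 fold changes (± SE) of *Slpi*, *Lcn2* (diamonds) and the 5 nearest tested genes on each side (circles), in order along the chromosome, with the *Slc2a1* gRNA (blue) and the 5 gRNAs (green) against control cells. The 3 tested genes closest to *Lcn2* stay between -0.30 and 0.38, and *Sys1*, the closest to *Slpi*, between -0.12 and 0.07, while *Gm20458* and *Dbndd2* have wide errors at mean levels of at most 1.30 TPM.

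The genes whose pattern over the 9 libraries was most like that of *Slpi* were looked up by the Pearson correlation of log2 CPM among 10656 genes with a mean of at least 50 estimated counts. They were *Cntrl* (r = 0.985), *Tmed10* (0.980), *Ess2* (0.980), *Epcam* (0.979) and *Ly6e* (0.979), and 200 genes exceeded 0.9. Each had smaller fold changes than *Slpi*, with log2 values from -0.13 to -0.82 with the *Slc2a1* gRNA and from -0.34 to -1.39 with the 5 gRNAs. Most like *Lcn2* were *Fiz1* (r = 0.967), *Slc10a3* (0.955), *Gdpgp1* (0.953), *Pepd* (0.952) and *Cdadc1* (0.949), and 35 genes exceeded 0.9. Their log2 fold changes were from 0.30 to 0.57 with the *Slc2a1* gRNA and from 0.20 to 0.54 with the 5 gRNAs. These correlations describe 9 libraries that share 3 groups and carry no test.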

How the data were processed

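RNA from 5TGM1-Cas9 cultures with a control, *Slc2a1* or *Slc2a1/3/5/6/8* gRNA was analyzed, with 3 biological replicates per group, grouped by the population and replicate number in the labels. p-values measure the spread between these cultures. cDNA was primed with oligo-dT, and the authors mapped paired reads with Salmon 1.5.1 (version per the submitters' processing notes). The annotation is not given in the sources used here. The authors deposited estimated counts, TPM, lengths and effective lengths per gene. Of 53077 gene names, 49351 occur in GENCODE M21, used with GRCm38 for coordinates.

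These deposited estimated counts, rounded to whole numbers, went into edgeR 4.0.16 under R 4.3.3 (quasi-likelihood test, TMM, default filter on low counts, Benjamini-Hochberg adjusted p under 0.05). All 9 samples shared a fit with the replicate number as a block, following the paired test of the study. Same-numbered libraries deviated together in the *Slc2a1* gRNA and control groups (r = 0.15, 0.11 and 0.22). For the 5 gRNAs and control groups r was 0.16, -0.06 and 0.13. For the 5 gRNAs and *Slc2a1* gRNA groups r was -0.11, -0.03 and -0.04, so same-numbered libraries did not deviate together there. Standard errors came from the F statistic. Scaled counts are TMM-normalized CPM times the mean library size, 25406778.

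Members and lists were chosen with earlier results of these data known. List genes named were called and reached a mean of 1 TPM or more in either group compared, up to 10 per comparison by adjusted p. *Grn*, *Elane*, *Slc22a17*, *Lrp2*, *Mmp9* and *Nfkbiz*, genes next to a member and the 5 genes of most like pattern are also named. Other marker genes and the targeted genes were named after their values were seen. Alternatives were no replicate block, DESeq2 1.42.0, total count normalization, other filters, only 2 groups, limma 3.58.1 on log2(TPM + 1) or log2(TPM + 0.1), and leaving out each sample.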

Additional observations from a re-analysis of the deposited data

How the results depend on the processing

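*Slpi* and *Lcn2* kept their direction in all 17 alternatives of both comparisons with the 5 gRNAs. *Slpi* passed the test in all of them with the 5 gRNAs against control cells (log2 fold change -4.06 to -3.81, and -4.19 to -3.60 leaving out a sample) and against the *Slc2a1* gRNA (-2.33 to -2.14, and -2.51 to -1.93). The control and *Slc2a1* gRNA libraries also helped choose both genes, and none of the alternatives removes that. For the *Slc2a1* gRNA, where the choice of the genes fixed the direction, leaving out a sample gave -1.86 to -1.45 for *Slpi* and 1.80 to 3.32 for *Lcn2*. *Lcn2* with the 5 gRNAs against control cells was called without the filter on low counts (1.48, adjusted p 1.01e-06) and with only the 2 groups (1.62, adjusted p 0.0105), and its value was 0.97 to 2.21 leaving out a sample. Over the other alternatives its adjusted p reached 0.182, and over samples left out 0.304. Against the *Slc2a1* gRNA it was called without the filter alone (-1.08, adjusted p 0.00149), with -1.75 to -0.20 leaving out a sample and adjusted p up to 0.838. *Lcn2* had 13 to 95 counts in control cells. The parts of depth and of the spread between cultures in the *Lcn2* values were not tested.

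The number of genes called depended on the fit. With the *Slc2a1* gRNA 642 genes were called, and DESeq2 called 1255, no filter 1448, only the 2 groups 2268, limma on log2(TPM + 1) 0 (2367 at an unadjusted p under 0.05) and on log2(TPM + 0.1) 52, with 11 to 1291 leaving out a sample. Of the listed genes 3 were called, and DESeq2 called 6, no filter 9, only the 2 groups 15 and limma 0 with either offset, with 0 to 8 leaving out a sample. With the 5 gRNAs 2204 genes and 12 listed genes were called, limma called 433 and 4 with the offset of 1 and 462 and 6 with that of 0.1, and leaving out a sample gave 631 to 2559 and 5 to 16. Between the edited populations 319 genes and 4 listed genes were called. No replicate block gave 129, DESeq2 758, no filter 974 and 8, only the 2 groups 116 and 1, limma 31 and 0 or 32 and 2, and leaving out a sample 42 to 383 and 0 to 5.

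Without the replicate block (paired design), the calls of *Slpi* and *Lcn2* stayed as they were. *Slpi* had -4.06 with the 5 gRNAs against control cells (adjusted p 0.00024 by edgeR's quasi-likelihood test). Its standard error was 0.45 there and 0.22 with the block. *Lcn2* had 1.44 in the same comparison (adjusted p 0.0853). Of 41 calls named for other genes, 10 were made whichever sample was left out and 6 under every alternative. *Slc2a5* has no value with the stricter filter, and *Pdgfra* none with only the 2 groups or that filter, nor an adjusted p by DESeq2 against the *Slc2a1* gRNA. Total count normalization moved the median of all genes to -0.10 with the *Slc2a1* gRNA, and the share of calls that were higher went from 48.4% to 23.9% there, from 53.3% to 41.9% with the 5 gRNAs and from 58.9% to 69.5% between the edited populations. With limma it was 17.3%, 27.5% and 65.6% with the offset of 0.1, and 27.3% and 67.7% in the latter comparisons with that of 1.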
